A study of Mus musculus with 11 samples.

Results

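In the basal cells of the pubertal mouse mammary gland, 5974 distal regions were open while the luminal cells beside them held few reads there. They were selected on measured values from 106497 merged ATAC-seq peaks whose distance to the closest protein-coding transcription start site (TSS) was over 10 kb, out of 153396 peaks in all. A peak was kept when the lower of its basal TEB and basal duct means was at least 4 CPM (the count divided by the library's total count in peaks, on the usual CPM scale) and at least 3 times the higher of its luminal TEB and luminal duct means. The sites made up 5.61% of the distal peaks. They are called basal-only sites here after that rule. The word does not mean that luminal libraries were empty there, since only 35 to 171 of the 5974 sites had no count in a given luminal TEB library and 55 to 103 in a given luminal duct library.

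ATAC-seq, in which a transposase cuts and tags accessible DNA, was run on nuclei of sorted mammary epithelial cells from C57BL/6 mice that carried an E-cadherin-GFP reporter and were 5 weeks old. Terminal end buds (TEBs), with which the pubertal ductal tree grows out, were dissected apart from the ducts behind them, and both lineages were sorted as lineage-negative CD29+ CD24+ cells, basal cells with low and luminal cells with high reporter signal. There were 3 basal TEB, 2 basal duct, 3 luminal TEB and 3 luminal duct libraries, prepared as biological replicates; a further basal duct sample was discarded by the study for its low cell number and is not analysed here. The basal TEB libraries were the shallowest, with 1821942 to 2489582 counts in peaks, against 6816197 and 9986384 in basal duct, 2960093 to 3738324 in luminal TEB and 4650216 to 5561051 in luminal duct libraries. Peaks that were more than 50% repeat-masked took 7.03 to 16.2% of the counts in basal TEB, 2.40 and 2.45% in basal duct, 5.58 to 7.21% in luminal TEB and 4.46 to 5.96% in luminal duct libraries, with the highest share in basal TEB replicate 1. The lineages were checked by marker promoters. The summed level of 6 basal marker promoters (Krt5, Krt14, Krt17, Trp63, Acta2, Myh11) was 111 to 157 CPM in basal TEB and 202 to 205 CPM in basal duct, against 26.7 to 31.8 CPM in luminal TEB and 21.1 to 24.5 CPM in luminal duct libraries. That of 6 luminal marker promoters (Krt8, Krt18, Krt19, Ehf, Elf5, Foxa1) was 49.9 to 58.2 CPM in basal TEB and 84.4 and 91.1 CPM in basal duct, against 173 to 202 CPM in luminal TEB and 175 to 215 CPM in luminal duct libraries. Krt18, Krt19, Ehf and Foxa1 had higher means in both luminal groups than in either basal group. Krt8 averaged 47.9 CPM in basal duct and 47.1 CPM in luminal TEB, and Elf5 4.93 CPM in basal TEB and 5.70 CPM in luminal TEB.

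Basal cells form the outer, contractile layer of the mammary epithelium, next to the basement membrane, and surround the luminal cells that line the lumen. Distal open sites include enhancers, to which transcription factors bind and from which they act on promoters that may be far away. In the basal layer p63, encoded by Trp63, is the factor on which the lineage depends, and it binds DNA as a tetramer over paired CATG cores. TEAD factors act with the YAP and TAZ coactivators. With SOX and NFI factors and serum response factor (SRF) they are further regulators used by basal and contractile cells. FOXA1 acts in luminal and other simple epithelia, and GRHL2 in epithelia more generally. A level at a site in these sorted populations is an average over cells, so fewer open cells and less accessibility per cell cannot be told apart.

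Windows of 300 bp at the peak centres were searched for 24 consensus motifs on both strands. The DNA of 4 sites is shown to make the matches visible at a site with a large basal to luminal ratio (E030018B13Rik), at a strong site (Gtsf1l), at a site higher in basal TEB than basal duct (Pkn2) and at a site lower in basal TEB than basal duct (Col6a2). Sequences are of the plus strand of GRCm38 (mm10), from the RefSeq assembly, and each site is named by the protein-coding gene with the nearest TSS. Capitals mark matches to the TEAD motif GGAATG, the SOX motif CCNTTGT, the NFI half-site TTGGCA and the TCF/LEF motif CTTTGAT or their reverse complements.
E030018B13Rik site, chr7:63856784-63857083: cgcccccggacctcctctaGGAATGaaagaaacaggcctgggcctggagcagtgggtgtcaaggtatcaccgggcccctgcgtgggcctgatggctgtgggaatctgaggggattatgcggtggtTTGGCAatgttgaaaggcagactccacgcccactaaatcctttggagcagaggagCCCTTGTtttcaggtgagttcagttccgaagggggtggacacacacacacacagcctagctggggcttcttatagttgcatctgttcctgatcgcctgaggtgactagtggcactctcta
Gtsf1l site, chr2:163075191-163075490: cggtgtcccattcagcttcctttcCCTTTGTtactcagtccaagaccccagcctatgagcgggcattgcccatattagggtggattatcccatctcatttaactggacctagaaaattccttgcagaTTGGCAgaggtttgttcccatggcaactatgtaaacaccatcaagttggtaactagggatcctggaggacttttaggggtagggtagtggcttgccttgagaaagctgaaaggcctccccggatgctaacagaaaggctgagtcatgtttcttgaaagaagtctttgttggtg
Pkn2 site, chr3:143512042-143512341: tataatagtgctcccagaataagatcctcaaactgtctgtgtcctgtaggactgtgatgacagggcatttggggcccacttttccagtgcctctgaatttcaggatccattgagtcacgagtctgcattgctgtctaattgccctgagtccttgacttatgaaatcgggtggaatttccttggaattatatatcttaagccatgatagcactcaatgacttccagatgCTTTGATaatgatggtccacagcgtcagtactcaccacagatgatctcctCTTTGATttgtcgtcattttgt
Col6a2 site, chr10:76642809-76643108: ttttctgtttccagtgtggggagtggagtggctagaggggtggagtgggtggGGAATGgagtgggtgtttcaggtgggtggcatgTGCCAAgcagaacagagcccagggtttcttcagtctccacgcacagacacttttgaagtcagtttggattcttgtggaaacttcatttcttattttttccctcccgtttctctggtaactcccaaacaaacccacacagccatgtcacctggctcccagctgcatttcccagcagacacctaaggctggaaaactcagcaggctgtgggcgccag
The first window held 1 TEAD, 1 SOX and 1 NFI half-site match, the second 1 SOX and 1 NFI half-site match, the third 2 TCF/LEF matches, and the last 1 TEAD and 1 NFI half-site match.

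The motif with paired CATG cores, 6 bases apart, the form bound by p63 and p53, was present in 131 of the 5974 windows. Of the strongest sites with it, 6 are shown, with the CATG cores in capitals and 3 bases on either side.
Zfp36l2 site, chr17:84074874-84074893: cttCATGttgcagCATGttg
Serinc5 site, chr13:92676503-92676522: aagCATGtgccagCATGccc
Tle3 site, chr9:61322496-61322515: actCATGctgattCATGaaa
Aldh2 site, chr5:121577243-121577262: agtCATGacaggaCATGcct
Slc5a12 site, chr2:110520936-110520955: cttCATGttgttgCATGccc
Camk1g site, chr1:193546510-193546529: agaCATGtgcagtCATGtac
The share of windows with the paired motif was 2.19% in basal-only sites (95% exact binomial interval 1.84 to 2.60%), against 1.01% in the 15483 other distal peaks whose lower basal mean was also 4 CPM or more, 0.915% in 9291 luminal-only sites chosen by the mirrored rule, and 1.14% in all distal peaks. The site near Slc5a12 had 33.7 CPM in its lower basal mean and 2.79 CPM in its higher luminal mean, and the site near Aldh2 34.3 and 3.72 CPM.

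Matches to 5 further motifs were more frequent at basal-only sites than in any of the other 3 classes. TEAD matches were in 29.1% of the windows (28.0 to 30.3%), against 23.9% of other sites of the same basal level, 18.6% of luminal-only sites and 22.6% of all distal peaks. NFI half-sites were in 29.4%, against 25.7%, 20.5% and 23.0% in the same order, and SOX matches in 23.3%, against 19.6%, 16.4% and 18.9%. The TCF/LEF motif, bound by the nuclear factors of Wnt signalling, was in 6.38%, against 4.39%, 4.69% and 4.64%. The CArG box of SRF, which drives contractile genes, was in 2.63%, against 2.12%, 1.32% and 1.65%. The E-box of SNAI and ZEB factors, some of which act in basal cells, went the other way, with 20.2% of basal-only sites, against 23.5% of other sites of the same basal level, 26.5% of luminal-only sites and 23.2% of all distal peaks. These matches are letters in a window and not measured binding.

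In these windows some motifs of luminal and general epithelial factors were scarcer. The FOX motif TGTTTAC was in 2.16% of basal-only sites (1.81 to 2.56%), against 4.18% of other sites of the same basal level, 17.3% of luminal-only sites and 7.21% of all distal peaks. GRHL matches were in 2.28%, against 3.26%, 5.26% and 3.42%. The AP-1 motif TGANTCA was in 20.4% of basal-only sites, which was below the 27.8% of other sites of the same basal level, the 46.2% of luminal-only sites and the 28.6% of all distal peaks. CTCF matches were in 4.97% of basal-only sites, against 10.4% of other sites of the same basal level and 9.01% of all distal peaks. In luminal-only sites the CTCF share was lower still, at 3.35%. The oestrogen response element was in 0 of 5974 windows, which allows a share of up to 0.0617% by the exact interval, and in 0.116% of all distal peaks. Shares of RUNX, C/EBP, GATA, ETS and TFAP2 motifs lay closer to those of all distal peaks, but some differed more from the other classes. RUNX matches were in 8.40% of basal-only sites and 8.65% of all distal peaks, and C/EBP matches in 15.5% and 14.9%. GATA matches were in 13.4% and 14.7%, ETS matches in 16.7% and 18.6%, and TFAP2 matches in 12.6% and 10.8%. At other sites of the same basal level the shares were 7.83% (RUNX), 14.2% (C/EBP), 11.8% (GATA), 20.5% (ETS) and 15.2% (TFAP2). In luminal-only sites they were 10.2% (RUNX), 18.2% (GATA), 19.9% (ETS) and 10.5% (TFAP2), and the C/EBP share was above that of basal-only sites. The GC content of the windows had a median of 49.7% in basal-only sites, 50.7% in other sites of the same basal level, 45.3% in luminal-only sites and 47.7% in all distal peaks, and its part in these shares was not tested. From the lowest to the highest quartile of basal level, TEAD matches were in 29.8, 29.2, 28.7 and 28.8% of the basal-only sites, TCF/LEF matches in 7.03, 6.97, 6.16 and 5.35%, paired CATG sites in 2.34, 2.68, 1.88 and 1.87%, and FOX matches in 1.67, 2.08, 2.88 and 2.01%.

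**Figure D1:**
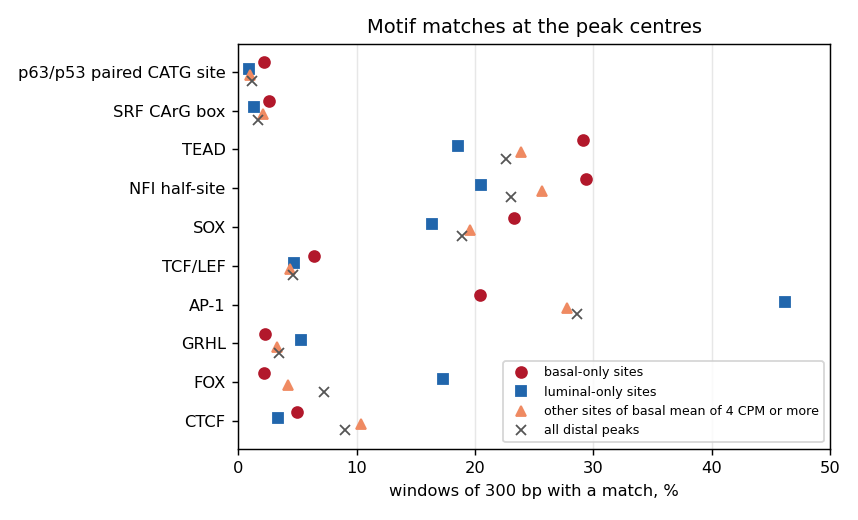
Share of 300 bp windows at the peak centres with a match to each of 10 of the 24 motifs searched, in percent, for basal-only sites (circles), luminal-only sites (squares), other distal sites with a lower basal mean of 4 CPM or more (triangles) and all distal peaks (crosses). Basal-only sites lie to the right of the other classes for TEAD (29.1%) and NFI half-sites (29.4%), and luminal-only sites lie far to the right for AP-1 (46.2%) and FOX (17.3%).

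The level of the basal-only sites is what chose them. Their median was 10.3 CPM in basal TEB and 10.6 CPM in basal duct, against 1.73 CPM in luminal TEB and 1.32 CPM in luminal duct. The lower basal mean had a median of 8.77 CPM (quartiles 5.87 and 14.3, maximum 91.8), and the ratio to the higher luminal mean a median of 4.54 (quartiles 3.63 and 6.16). At 5772 sites (96.6%) the lowest of the 5 basal libraries exceeded the highest of the 6 luminal libraries, which describes the selection and is no test of it. The sites took 6.72 to 9.05% of the counts in peaks in basal TEB and 7.94 and 8.47% in basal duct libraries, against 1.14 to 1.54% in luminal TEB and 0.987 to 1.16% in luminal duct libraries. A site had a median of 16 to 28 counts in a basal TEB library, against 76 and 100 counts in a basal duct library, 5 to 7 in a luminal TEB library and 6 or 7 in a luminal duct library, so single values are least precise in the luminal libraries and, among basal ones, in basal TEB.

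**Figure D2:**
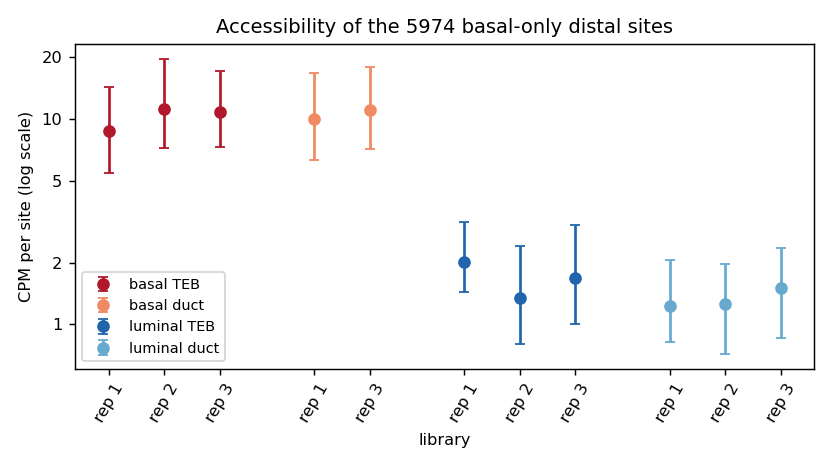
CPM of the 5974 basal-only sites in each of the 11 libraries on a log axis, with the median as a point and the quartiles as bars. Medians lie between 8.78 and 11.2 CPM in the 5 basal libraries and between 1.23 and 2.01 CPM in the 6 luminal libraries.

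Values just inside and outside the limits were close to each other. A site near Myc and one near Lrrc8c entered with a lower basal mean of 4.007 CPM, and distal peaks near Fbn2 and Nmur1 stayed out with 3.9996 CPM. A site near BC030870 had a basal to luminal ratio of 3.0003 and one near Elmo1 3.0006, against 2.9999 near Pim1 and 2.9996 near Tshz2, which were not kept.

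The rule was repeated without each library in turn, and the library left out was then read at the sites so chosen. Of 5729 to 6301 sites chosen without 1 basal TEB library, 71.2% (replicate 1), 87.1% (replicate 2) and 87.9% (replicate 3) were at least 3 times the higher luminal mean in that library. For the basal duct libraries it was 86.6% (replicate 1) and 96.9% (replicate 3). For a luminal library left out, the lower basal mean was at least 3 times its value at 71.6 to 89.7% of sites in luminal TEB and 89.5 to 95.6% in luminal duct libraries. In every library left out, at least 97.9% of the sites lay on the side of the other lineage's mean that the rule asks for, and 88.1 to 98.5% of the 5974 sites were chosen again.

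The median width was 697 bp, against 714 bp for other distal peaks of the same basal level, 502 bp for luminal-only sites and 322 bp for all distal peaks. By position 49.5% lay in introns, 47.9% between genes, 1.34% in coding exons and 1.32% in untranslated exons, against 44.9% in introns and 52.6% between genes for all distal peaks. The median distance to a protein-coding TSS was 50.7 kb, and 28.4% of the sites were over 100 kb from one. Only 38 sites (0.636%) were more than 50% repeat-masked, against 10.6% of all distal peaks. The X chromosome held 46 sites (0.770%), against 1.38% of other distal peaks of the same basal level and 2.62% of all distal peaks.

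The strongest site by its lower basal mean was an intergenic peak 234 kb from Irx1, an Iroquois homeobox factor (chr13:72197923-72199328). It had 69.2, 109 and 108 CPM in basal TEB and 88.5 and 95.1 CPM in basal duct libraries, against 17.0, 16.9 and 20.6 CPM in luminal TEB and 22.1, 12.0 and 13.1 CPM in luminal duct libraries. A peak 59.4 kb from Ripor2 (chr13:24520821-24522777) had 71.4, 117 and 78.4 CPM in basal TEB and 76.9 and 72.8 CPM in basal duct, against 5.74 to 8.29 CPM in luminal TEB and 4.32 to 6.56 CPM in luminal duct libraries. At both sites the basal TEB and basal duct values overlapped, and basal and luminal values did not. A peak in an intron of Mybl2, 12.0 kb from Gtsf1l (chr2:163074798-163075883), had 49.9 to 99.2 CPM in basal TEB and 71.2 and 72.7 CPM in basal duct libraries, with at most 8.02 CPM in any luminal library. The other 3 of the 6 strongest lay near Fancc, a DNA crosslink repair gene, Clic4, an intracellular chloride channel gene, and the unnamed gene 1700021F07Rik.

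The largest ratios belonged to sites with little luminal signal. An intronic site of Hunk, a kinase gene (chr16:90467982-90469139), had 38.4, 75.1 and 68.1 CPM in basal TEB and 58.1 and 51.9 CPM in basal duct, against 1.69 to 2.67 CPM in luminal TEB and 1.62 to 2.37 CPM in luminal duct libraries. A site 57.8 kb from Ets2, an ETS factor gene (chr16:95759835-95760520), had 20.9, 27.3 and 27.0 CPM in basal TEB and 29.3 and 26.7 CPM in basal duct, against 0.535 to 1.01 CPM in luminal TEB and 0.360 to 0.820 CPM in luminal duct libraries. At both sites every basal library stood far above every luminal one. The others lay near Txnrd1, a thioredoxin reductase gene, E030018B13Rik, Laptm5, a gene of blood cells (46.6 kb away), and Cdh5, the endothelial cadherin gene (518 kb away).

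Nearest protein-coding genes numbered 3031, of which 1740 had a single site and 224 had 5 or more. Those 224 genes held 1491 sites (25%). Atxn1 led with 15 of its 50 distal peaks, followed by Tns3, whose tensin links integrins to actin, with 14 of 78. Klhl29 had 13 of 61 and Psd2 13 of 37. Runx1, a transcription factor gene, had 12 of 81, and Gas1, a hedgehog co-receptor gene, 12 of 38. Among 9 genes tied at 11 sites, Camk1g, Chst11, Tle3 and Dbx1 had the largest summed basal level, with 65, 32, 57 and 43 distal peaks in all. Chst11 makes chondroitin sulfate chains and Tle3 is a Groucho corepressor. Atxn1, Psd2, Gas1 and Chst11 had no luminal-only site.

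The strongest site of Tns3 (chr11:8569142-8570713, in its intron, 93.8 kb from the TSS) had 37.9, 75.1 and 55.4 CPM in basal TEB and 81.3 and 69.4 CPM in basal duct, against 2.14 to 6.42 CPM in luminal TEB and 2.15 to 3.90 CPM in luminal duct libraries. That of Psd2, 51.0 kb away on chromosome 18, had 34.0, 59.0 and 50 CPM in basal TEB and 28.6 and 24.2 CPM in basal duct, against 1.35 to 2.41 CPM in luminal TEB and 1.62 to 3.23 CPM in luminal duct libraries. The Psd2 site was higher in each basal TEB than in either basal duct library, but the difference did not pass the test (log2 fold change 0.63, SE 0.32, edgeR exact test, adjusted p = 0.14). The strongest sites of the other 8 genes ran from 19.8 to 58.2 CPM in basal TEB and from 27.9 to 55.5 CPM in basal duct libraries.

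Some sites lay close to each other. With links of up to 10 kb, 1871 sites (31.3%) had another site of their class nearby, against 30.6% of luminal-only sites, 43.0% of other sites of the same basal level and 77.2% of all distal peaks, classes that differ in size. The sites fell into 4905 groups, of which 4103 held 1 site and 49 held 4 or more. The largest group, with 9 sites over 48.4 kb (chr8:11322998-11371349), lay in Col4a2, the gene beside Col4a1, both of which encode collagen IV of the basement membrane. Of 15 distal peaks in that span, 9 were basal-only. Their summed level was 106 CPM in basal TEB and 93.5 CPM in basal duct, against 13.5 CPM in luminal TEB and 9.69 CPM in luminal duct. A group of 8 sites over 31.6 kb lay near Il17b, a cytokine gene on chromosome 18, with 174 CPM in basal TEB and 143 CPM in basal duct, against 29.8 CPM in luminal TEB and 19.9 CPM in luminal duct. A group of 7 sites over 27.1 kb lay in Atxn1, with 123 CPM in basal TEB and 107 CPM in basal duct, against 12.3 CPM in luminal TEB and 8.79 CPM in luminal duct.

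By nearest gene, the share of distal peaks that were basal-only was above the 5.61% over all distal peaks near lists of basal genes, and also near several lists of other cell types. Of 435 distal peaks near 28 extracellular matrix genes, 60 (13.8%) were basal-only, and of 463 near 30 basal identity genes, 60 (13.0%). The shares were 10% (31 of 310) for contractile and smooth muscle genes, 9.90% (110 of 1111) for basal transcription factors and 9.41% (59 of 627) for Wnt and Notch pathway genes. Near pan-luminal genes it was 4.67% (14 of 300), near mature luminal genes 4.94% (12 of 243) and near luminal progenitor genes 3.70% (3 of 81). Near 24 cell cycle genes it was 6.96% (8 of 115). It was 8.06% (5 of 62) near housekeeping genes. Near short lists that the study itself drew from these end buds and ducts it was 15% (16 of 107) for genes high in TEBs and 11.3% (7 of 62) for genes high in ducts, which is no independent evidence. Near markers of other cell types it was 33.3% (4 of 12) for Schwann and nerve cells, 12.1% (4 of 33) for pericytes, 9.68% (3 of 31) for adipocytes, 9.57% (11 of 115) for endothelium, 7.89% (3 of 38) for immune cells and 1.01% (1 of 99, near Dcn) for fibroblasts. These shares are counts with no test, and the lists overlap.

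Among the basement membrane genes, Col4a1 had 11 sites and Hspg2, which encodes perlecan, 5. The strongest Col4a1 site (chr8:11381836-11383262) had 42.1 to 50.2 CPM in basal TEB and 52.7 and 55.4 CPM in basal duct, against 2.36 to 8.56 CPM in luminal TEB and 4.51 to 5.57 CPM in luminal duct libraries. Nrg1, the ligand neuregulin of the ERBB receptors, had 10 sites, of which the strongest lay 209 kb away in its own intron (chr8:32218730-32219754) with 25.8, 57.4 and 50 CPM in basal TEB and 33.7 and 34.0 CPM in basal duct, against 1.35 to 3.45 CPM in luminal TEB and 1.26 to 2.15 CPM in luminal duct libraries. Trp63 had 4 sites, 33.3 to 58.8 kb from a TSS. Among receptors and ligands of the Wnt and Notch pathways, Fzd7, a Frizzled receptor gene, had 4 sites, and Jag1 and Dll1, Notch ligand genes, had 7 each.

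The Fzd7 site 32.6 kb from the TSS (chr1:59448289-59449852) was the strongest of the basal identity list, with 50.5, 69.5 and 66.2 CPM in basal TEB and 61.8 and 60.7 CPM in basal duct, against 9.46 to 11 CPM in luminal TEB and 6.45 to 10.1 CPM in luminal duct libraries. The only site near Snai2, a zinc finger factor of the basal lineage, lay 93.9 kb away and had 46.7 to 64.7 CPM in basal TEB and 58.5 and 60.6 CPM in basal duct, against 12.2 to 16.9 CPM in luminal TEB and 11.9 to 16 CPM in luminal duct libraries. Among contractile genes the leading sites lay in an intron of Mrtfa, the gene of an SRF coactivator, with 42.3 to 49.8 CPM in basal TEB and 56.3 and 56.7 CPM in basal duct, and in an exon of Mylk, the myosin light chain kinase gene, with 36.2 to 40.7 CPM in basal TEB and 34.9 and 45.4 CPM in basal duct. In luminal TEB and luminal duct libraries the Mrtfa site had at most 10.5 CPM and the Mylk site at most 4.88 CPM. Some sites lay near luminal genes too: a site 75.8 kb from Wnt4 had 41.7 to 47.8 CPM in basal TEB and 52.3 and 60.6 CPM in basal duct, against at most 5.46 CPM in luminal TEB and 3.44 CPM in luminal duct libraries.

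The basal gate takes cells of low reporter signal, so markers of other cells were read too. Promoter peaks of 5 fibroblast markers summed to 69.7 to 89.6 CPM in basal TEB and 133 and 139 CPM in basal duct, against 19.8 to 25.3 CPM in luminal TEB and 22.4 to 24.7 CPM in luminal duct libraries. The defining fibroblast gene Col1a1 and the endothelial genes Pecam1 and Cdh5 had no promoter peak. Endothelial markers (5 promoters) summed to 37.0 to 53.2 CPM in basal TEB and 54.0 and 59.6 CPM in basal duct, against 19.5 to 24.7 CPM in luminal TEB and 17.4 to 20 CPM in luminal duct libraries. Pericyte markers (5 promoters) ran from 31.7 to 43.4 CPM in basal TEB and were 40.2 and 45.9 CPM in basal duct, against 25 to 30.1 CPM in luminal TEB and 21.3 to 25 CPM in luminal duct libraries, whereas the sums of immune and adipocyte markers overlapped between the lineages. Within the immune list the Csf1r promoter averaged 0.911 CPM in basal TEB and 1.24 CPM in basal duct. Its means were 6.93 CPM in luminal TEB and 8.36 CPM in luminal duct. Schwann and nerve markers (4 promoters) summed to 55.4 to 75.1 CPM in basal TEB and 74.8 and 77.6 CPM in basal duct, against 55.1 to 66.1 CPM in luminal TEB and 53.8 to 66.2 CPM in luminal duct libraries. The part of other cells in the basal-only sites was not tested.

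The promoters of the genes nearest to basal-only sites were read as a separate set of peaks, within 500 bp of a TSS, from the same libraries. In basal duct against luminal duct, 43.7% of all 13740 promoter peaks were called higher in basal duct and 11.3% lower (edgeR exact test, FDR 0.05). Of the 2628 promoter peaks of nearest genes, 1442 (54.9%) were higher in basal duct and 182 (6.93%) lower. Their median log2 fold change was 0.48, against 0.31 over all promoter peaks. In basal TEB against luminal TEB, 9.72% of all promoter peaks were higher and 15.1% lower, and of the nearest-gene promoters 435 (16.6%) were higher in basal TEB and 368 (14%) lower. The share called higher in basal duct was 41.0% for genes with no site, 51.0% with 1, 54.8% with 2, 63.3% with 3 or 4 and 65.6% with 5 or more sites. For basal TEB against luminal TEB these shares were 8.10, 13.0, 17.6, 22.5 and 27.3%.

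The split of calls in basal duct against luminal duct depended on the scaling. With TMM factors taken from TSS peaks, 26.7% of all promoter peaks were higher in basal duct and 28.5% lower, against 38.3% and 22.0% of the nearest-gene promoters, and with offsets by GC content it was 26.4% and 30.7%, against 36.1% and 25.9%. Under all 6 scalings tried, the share called higher was above that of all promoters in both comparisons. The count of 182 lower promoters was 66 without basal duct replicate 3, 117 without luminal duct replicate 1 and 106 without luminal duct replicate 2, and the 368 lower in basal TEB were 168 without luminal TEB replicate 2 and 227 without luminal TEB replicate 3.

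**Figure D3:**
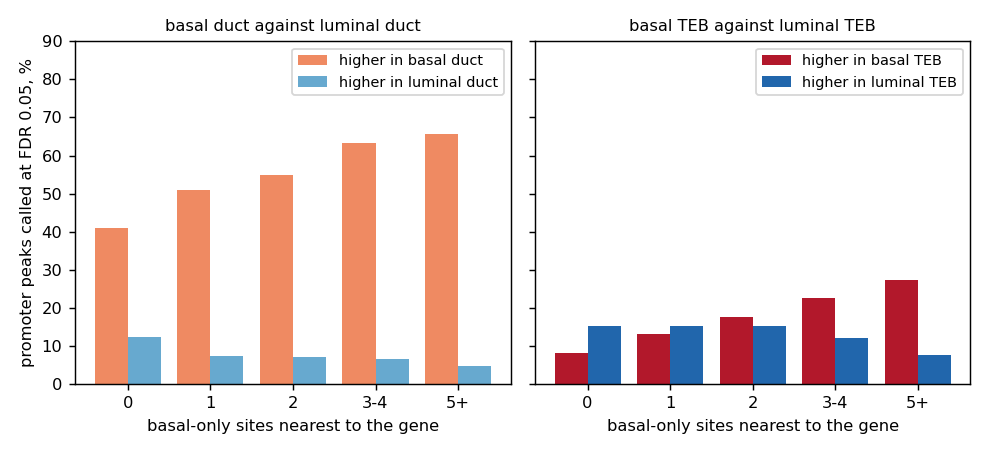
Share of promoter peaks called at FDR 0.05, in percent, by the number of basal-only sites nearest to the gene, for basal duct against luminal duct (left) and basal TEB against luminal TEB (right). Each pair of bars gives promoters higher in the basal group and promoters higher in the luminal group. Genes with 5 or more sites reach 65.6% in basal duct and 27.3% in basal TEB.

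Among the 10 genes with the most sites, the promoters of Klhl29, Psd2, Gas1, Chst11 and Atxn1 were higher in both basal groups than in their luminal partners. The Chst11 promoter averaged 35.9 CPM in basal duct and 4.86 CPM in luminal duct (log2 fold change 2.91, SE 0.13, edgeR exact test, adjusted p = 5.5e-43), and 21.9 CPM in basal TEB and 5.13 CPM in luminal TEB (2.02, SE 0.11, adjusted p = 3.9e-09). The Atxn1 promoter averaged 51.5 CPM in basal duct and 35.5 CPM in luminal duct (0.57, SE 0.17, adjusted p = 0.00055). Runx1 differed between the duct groups (0.54, SE 0.17, adjusted p = 0.0013), while its value between the TEB groups was -0.03 (SE 0.31, adjusted p = 0.98). Camk1g and Dbx1 had no promoter peak.

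The selection did not use the sign of the difference between end bud and duct, but it asked for a high level in both basal groups, which limits how far a site can differ between them. The shares of sites called below are therefore a description beside those of all peaks, and nothing about the set is read from them. All 5974 sites were tested in the fit over 153358 peaks. With TMM scaling, 139 sites (2.33%) were higher and 648 (10.8%) lower in basal TEB than in basal duct, against 8.22% higher and 9.73% lower over all peaks (edgeR exact test, FDR 0.05). The median log2 fold change of the sites was -0.24, against 0.02 over all peaks and -0.42 at other sites of the same basal level. The direction of the whole set was set by the scaling: with TMM factors from TSS peaks, which moved the median of all peaks to 0.67, 1004 sites were higher and 68 lower, with loess offsets 887 and 179, with GC offsets 453 and 373, with library totals 289 and 347, and with RLE factors 222 and 468. Relative to the median of all peaks the sites lay at -0.25 under each of the 4 constant scalings, at -0.29 with GC offsets, at 0.07 with loess offsets and at 0.17 after a filter on low counts. Hence no direction is given for the set.

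**Figure D4:**
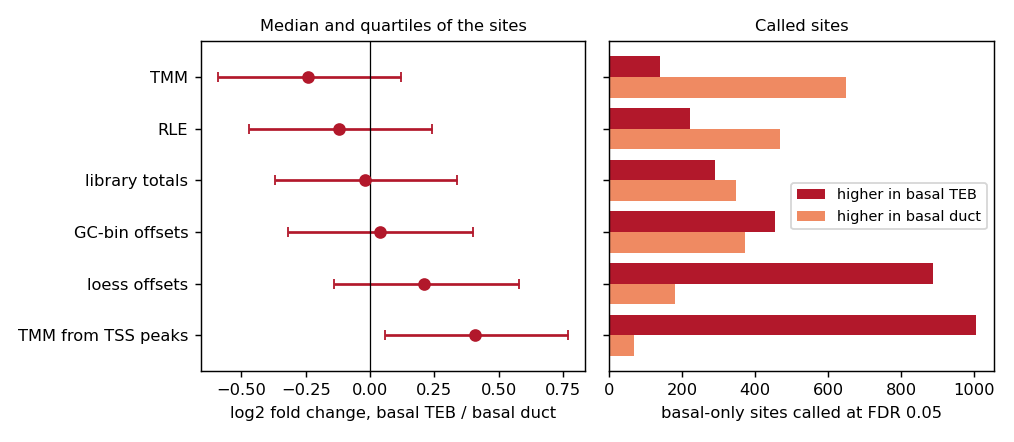
Basal-only sites between basal TEB and basal duct under 6 scalings. Left, median and quartiles of the log2 fold change (basal TEB over basal duct). Right, number of sites called at FDR 0.05 higher in basal TEB and higher in basal duct, which runs between 139 and 648 with TMM and between 1004 and 68 with TMM factors from TSS peaks.

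Some single sites kept their call under every scaling. The 139 sites called higher in basal TEB were called so under all 6 (2.33%, against 7.01% of all peaks), and 68 sites were called lower under all 6 (1.14%, against 1.52% of all peaks). Of the 6 scalings, TMM gave the sites the lowest median log2 fold change (-0.24) and TMM factors from TSS peaks the highest (0.41). The 139 are the higher calls of the former and the 68 the lower calls of the latter. Keeping a call was therefore largely set by the order of the scalings and is no separate evidence. Leaving out a library changed the counts: 3 higher and 31 lower sites were called without basal duct replicate 1, and 19 and 127 without basal duct replicate 3, with 1 basal duct library left whose spread is taken from the basal TEB group. There were 259 higher and 558 lower sites without basal TEB replicate 1, 124 and 1019 without basal TEB replicate 2, and 165 and 390 without basal TEB replicate 3.

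The leading site higher in basal TEB lay in an intron of Spsb4, which encodes a SOCS box adaptor, 45.3 kb from the TSS (chr9:96972422-96973509). It had 50.5, 59.0 and 60.3 CPM in basal TEB, against 10.7 and 14.1 CPM in basal duct libraries, and at most 5.75 CPM in luminal TEB and 2.87 CPM in luminal duct libraries. The basal groups were well apart (log2 fold change 1.98, SE 0.14, edgeR exact test, adjusted p = 1.9e-08). A site 630 kb from Pkn2, a protein kinase gene (chr3:143511743-143512641), had 25.8, 33.3 and 42.1 CPM in basal TEB, against 5.51 and 9.10 CPM in basal duct libraries (2.01, SE 0.33, adjusted p = 3.4e-07). A site 45.4 kb from Tnrc6c, the gene of an Argonaute partner (chr11:117608359-117608876), had 20.3, 23.7 and 29.4 CPM in basal TEB, against 5.51 and 4.25 CPM in basal duct libraries (2.07, SE 0.28, adjusted p = 4.8e-07). A site 118 kb from Adamts9, a secreted metalloprotease gene (chr6:93061854-93062436), had 34.6, 34.1 and 34.3 CPM in basal TEB, against 8.41 and 10.9 CPM in basal duct libraries (1.62, SE 0.10, adjusted p = 1.3e-05). No basal TEB value overlapped a basal duct value at these 4 sites. The calls at Spsb4, Pkn2 and Tnrc6c held under all 15 alternatives, and that at Adamts9 was lost without basal duct replicate 1 (log2 fold change 1.52).

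The leading site lower in basal TEB lay in an intron of Oca2, a gene of pigment cells (chr7:56419150-56420246). It had 9.33, 6.83 and 3.92 CPM in basal TEB, against 42.6 and 44.9 CPM in basal duct libraries (log2 fold change -2.93, SE 0.36, edgeR exact test, adjusted p = 8.5e-15). A site 33.2 kb from Tmem270 (chr5:134872493-134873525) had 8.78, 4.42 and 8.33 CPM in basal TEB, against 41.0 and 32.7 CPM in basal duct libraries (-2.62, SE 0.36, adjusted p = 1.3e-11). In luminal TEB and luminal duct libraries both sites had at most 4.31 CPM. A site 18.6 kb from Col6a2, which encodes a collagen VI chain (chr10:76642230-76643687), had 7.68, 7.63 and 10.8 CPM in basal TEB, against 42.3 and 39.5 CPM in basal duct libraries (-2.46, SE 0.18, adjusted p = 1.4e-11). A site 31.7 kb from Prelp, a matrix proteoglycan gene (chr1:133953072-133953985), had 4.39, 7.23 and 5.88 CPM in basal TEB, against 33.3 and 26.8 CPM in basal duct libraries (-2.57, SE 0.31, adjusted p = 1.1e-10). All 4 calls held under the 15 alternatives. A site 27.1 kb from Lep (chr6:29031791-29033106), the leptin gene of adipocytes, also fell, with 13.2, 15.3 and 26.5 CPM in basal TEB, against 46.4 and 48.9 CPM in basal duct libraries (-1.61, SE 0.28, adjusted p = 7.2e-06). The summed fibroblast promoters had 69.7 to 89.6 CPM in basal TEB and 133 and 139 CPM in basal duct. Sums of other marker promoters were lower in basal TEB too. Basal markers had 111 to 157 CPM, against 202 and 205 CPM in basal duct, and luminal markers 49.9 to 58.2 CPM, against 84.4 and 91.1 CPM. Of all promoter peaks, 34.9% were called lower and 0.604% higher in basal TEB. The part of fibroblasts in these sites was not tested.

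**Figure D5:**
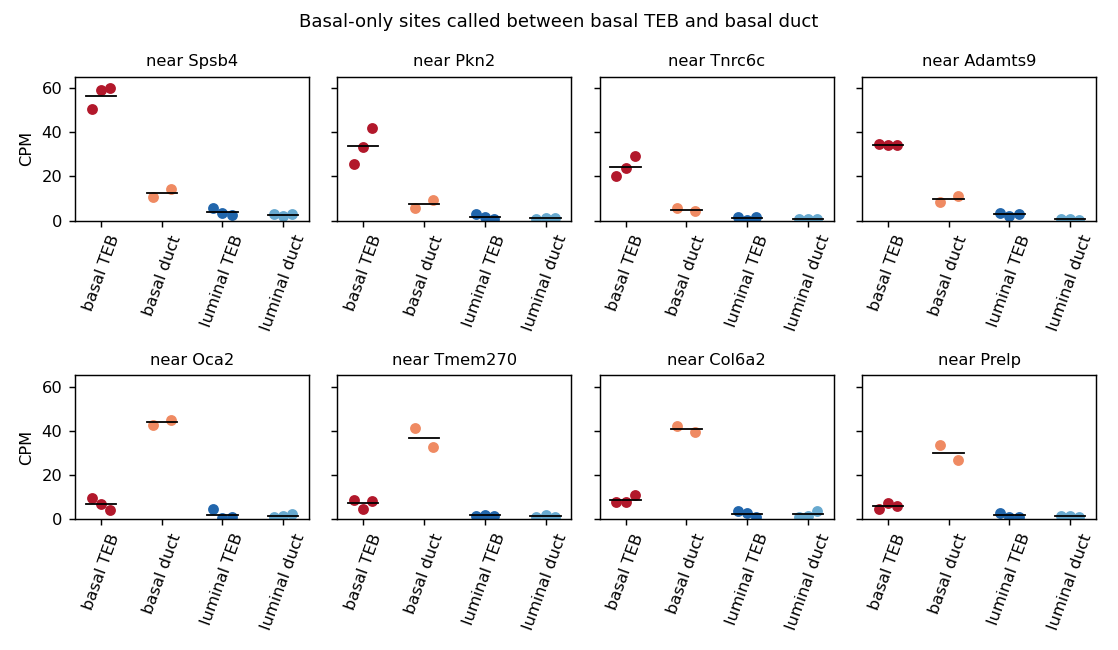
CPM in each library (points) and group mean (lines) for the 4 basal-only sites with the smallest p in each direction between basal TEB and basal duct, with groups in the order basal TEB, basal duct, luminal TEB and luminal duct. The upper sites reach 20.3 to 60.3 CPM in basal TEB and the lower sites 26.8 to 44.9 CPM in basal duct.

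Calls between basal TEB and basal duct near the gene lists were counted beside the 2.33% higher and 10.8% lower of all basal-only sites, with no test. Of 110 sites near basal transcription factors 4 were higher and 13 lower in basal TEB, and 2 of the 6 sites near Tbx2, a T-box factor gene, were among the higher ones. Of 60 sites near basal identity genes 0 were higher and 8 lower, and of 60 near extracellular matrix genes 1 was higher and 6 lower, including all 3 near Tnc, the tenascin C gene. Of 31 near contractile genes 0 were higher and 5 lower, of 59 near Wnt and Notch genes 1 was higher and 8 lower, and of 11 near endothelial markers 1 was higher and 4 lower. Of the 12 sites near Gas1 6 were lower and 0 higher. These lower counts are with TMM scaling, and under all 6 scalings 2 sites near basal transcription factors, 1 near basal identity genes, 1 near extracellular matrix genes, 1 near endothelial markers, 0 near contractile genes and 0 near Wnt and Notch genes stayed lower. Of the promoter peaks of the nearest genes, 0 of 112 were higher and 38 lower in basal TEB beside the 139 higher sites, and 0 of 477 were higher and 234 lower beside the 648 lower sites, against 0.604% higher and 34.9% lower of all promoter peaks. Their median log2 fold change was -0.59 beside the higher sites, -0.78 beside the lower sites and -0.88 beside the 68 sites lower under all 6 scalings, against -0.65 over all promoter peaks. The difference between the promoters beside higher and lower sites was not tested.

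Of the 24 motifs searched, some differed in share between the sites higher and lower in basal TEB, and others were close. NFI half-sites were in 29.5% of the higher and 28.9% of the lower sites, and SOX matches in 25.2% and 21.5%. The share of TEAD matches in all basal-only sites was 29.1%. TEAD matches were in 25 of the 139 higher sites (18%, 95% exact interval 12.0 to 25.4%) and in 219 of the 648 lower sites (33.8%, 30.2 to 37.6%). TCF/LEF matches were in 10.8% of the higher sites (6.17 to 17.2%) and 4.17% of the lower ones (2.76 to 6.00%), and the homeodomain motif TAATTA was in 12.2% (7.29 to 18.9%) and 5.71% (4.05 to 7.78%), with overlapping intervals. The TEAD share stayed lower among sites higher in basal TEB under all 6 scalings: with TMM factors from TSS peaks it was 24.3% of 1004 higher sites and 44.1% of 68 lower sites. The TCF/LEF shares under that scaling, 9.26% (7.54 to 11.2%) and 7.35% (2.43 to 16.3%), had overlapping intervals. The AP-1 share was also lower among sites higher in basal TEB under all 6 scalings. With TMM it was 15.1% (9.60 to 22.2%), against 22.8% (19.7 to 26.3%) of the lower sites. With TMM factors from TSS peaks it was 14.6% and 30.9%. GRHL matches were in 4.32% and 0.772% with TMM, and in 2.79% and 2.94% with TMM factors from TSS peaks. These intervals cover counting error only, with no allowance for the number of motifs searched, and other scalings were read after the data were seen.

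Luminal values at these sites were low, and 11 sites (0.184%) were called higher and 0 lower in luminal TEB than in luminal duct, against 0.311% and 0.455% of all peaks (edgeR exact test over 153394 peaks, FDR 0.05). At an unadjusted p under 0.05, 430 sites were higher and 23 lower, against 5.48% higher and 6.03% lower of all peaks. The quasi-likelihood test of edgeR called 10 higher and 0 lower. DESeq2 gave an adjusted p for 5% of the peaks in this comparison and for 0 of the 5974 sites, so its calls say nothing about them. The median log2 fold change of the sites was 0.30, against 0.01 over all peaks and 0.05 over 31242 other distal peaks with a higher luminal mean of 1.29 to 2.76 CPM, the middle range of the basal-only sites. It stayed positive under all 6 scalings, between 0.24 and 0.45. In sum the 6 basal marker promoters had 26.7 to 31.8 CPM in luminal TEB and 21.1 to 24.5 CPM in luminal duct libraries. Single promoters went both ways. Acta2 averaged 15.7 CPM in luminal TEB and 9.82 CPM in luminal duct, and Krt14, Krt17 and Trp63 were also higher in luminal TEB. Krt5 (0.434 CPM in luminal TEB and 0.94 CPM in luminal duct) and Myh11 (6.41 and 7.8 CPM) were lower. The part of basal cells in the luminal gate was not tested. The count of 11 was 3 without luminal TEB replicate 1, 21 without luminal TEB replicate 2, 4 without luminal TEB replicate 3, 4 without luminal duct replicate 1, 3 without luminal duct replicate 2 and 7 without luminal duct replicate 3.

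The site with the smallest p lay 15.8 kb from Il17b on chromosome 18, in the group of 8 sites described above. It had 6.32, 4.81 and 7.77 CPM in luminal TEB, against 2.3, 1.98 and 1.29 CPM in luminal duct libraries (log2 fold change 1.67, adjusted p = 0.005), with 32.9 to 51.4 CPM in basal TEB and 32.4 and 34.9 CPM in basal duct libraries. The strong site near 1700021F07Rik (chr2:173419613-173421028) had 19.8, 20.9 and 18.6 CPM in luminal TEB, against 14.2, 5.04 and 9.46 CPM in luminal duct libraries (1.01, adjusted p = 0.0067). A site in an intron of Wdtc1, 20.8 kb from Tmem222 (chr4:133298596-133299895), had 6.32, 13.1 and 5.74 CPM in luminal TEB, against 4.72, 2.52 and 1.94 CPM in luminal duct libraries (1.42, adjusted p = 0.012). The luminal groups did not overlap at the 3 sites, and each call was lost without at least 1 library. The log2 fold change of the Il17b site was 1.52 (adjusted p = 0.091) without luminal TEB replicate 3 and that of the 1700021F07Rik site 0.69 (adjusted p = 0.22) without luminal duct replicate 2. That of the Tmem222 site was 0.89 (adjusted p = 0.31) without luminal TEB replicate 2, 1.30 (0.12) without luminal duct replicate 2 and 1.20 (0.085) without luminal duct replicate 3.

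The difference between the end bud effects of the 2 lineages was tested with an interaction term over all 11 libraries and 126832 peaks (edgeR quasi-likelihood test, FDR 0.05). It was positive, that is higher in basal than luminal cells, at 18 basal-only sites (0.301%) and negative at 363 (6.08%), against 7.51% and 6.50% of all peaks. The rule limits these shares in the same way. Of the 363 negative sites 214 were also called lower in basal TEB than basal duct, and 15 of the 18 positive ones were called higher. The total of 381 was 251 with RLE factors and 194 with TMM factors from TSS peaks. It was 119 without basal duct replicate 1, 220 without basal duct replicate 3, 727 without basal TEB replicate 2, 246 without luminal duct replicate 1, 227 without luminal duct replicate 2 and 197 without luminal TEB replicate 1.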

How the data were processed

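ATAC-seq counts in peaks of 11 libraries were used. Per the labels and the study's methods, reads were adapter-trimmed by the authors and aligned to mm10 (Bowtie2, 2.3.4.3 per the labels). After duplicate removal, MACS2 peaks were called for each population from its replicates combined, then joined across populations, without blacklisted regions; the deposited values are raw read counts per merged peak and library. Because peaks were called on pooled replicates, no peak set per library was compared.

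From these counts, CPM, distances to 41421 protein-coding TSSs and the basal-only rule were computed. The members, gene lists, motifs and tests were chosen with earlier results of these data known. Pairs of groups were compared with the exact test of edgeR 4.0.16 (R 4.3.3) with TMM factors and Benjamini-Hochberg adjustment over all peaks (FDR 0.05), and the interaction with its quasi-likelihood test. Log2 fold changes come from the fit and SEs from the log2 CPM of the libraries (prior count 2). An SE is therefore not on quite the same scale as the fold change beside it. P-values measure the spread between these libraries, since no source used here says how many mice each came from. The loess, GC and replicate block alternatives use the quasi-likelihood test, so they change the test as well. DESeq2 1.42.0, other scalings, a filter, replicate blocks and left-out libraries were alternatives; motif and promoter shares under other scalings and the luminal-level comparison were added after the data were seen. Scripts were tested on simulated data.

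Named were the 6 strongest sites, the 6 with the largest ratio, the 4 smallest p in each direction between basal groups, the 3 smallest p between luminal groups, and the 10 genes with the most sites (ties by summed basal level). Leading sites of the 18 gene lists were chosen after their values were seen, and 1 listed gene is not reported here. Motif intervals are exact binomial (95%) and cover counting error only.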

Additional observations from a re-analysis of the deposited data

Results flagged for a closer look

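Among the basal-only sites picked by the naming rule or leading a gene list, 11 passed the interaction test of edgeR (FDR 0.05). Of all peaks, 7.51% were called positive and 6.50% negative in that test. Sites named for a small p between TEB and duct were picked on a contrast that is part of the interaction, in the same libraries. Their calls here are therefore largely set by the picking and are no separate evidence. The value given is the log2 difference of the basal TEB to basal duct effect and the luminal TEB to luminal duct effect. It was positive at the site near Spsb4 (1.52). It was negative at the sites lower in basal TEB near Oca2 (-3.15), Tmem270 (-2.74), Col6a2 (-2.62), Prelp (-2.83) and Lep (-2.25). It was also negative at the sites higher in luminal TEB near 1700021F07Rik (-1.31), Il17b (-1.52) and Tmem222 (-1.63). At the leading sites near Runx1 (-1.10) and Klf5 (-1.28) neither pair was past its own threshold. Groups of 2 and 3 libraries were too small to look for a single library far from the others.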

How the results depend on the processing

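The 5974 sites became 9352 with a ratio limit of 2, 3786 with a ratio limit of 4 and 3922 when 10 kb from any annotated TSS was required; without single libraries they numbered 5451 to 6417. Sites higher in basal TEB than basal duct (139) numbered 688 after a filter on low counts (filterByExpr, which also changes the TMM factors), 222 with RLE factors, 289 with library totals, 1004 with TMM factors from TSS peaks, 887 with loess offsets and 453 with GC offsets, and 3 to 259 without single libraries. Sites lower in basal TEB (648) numbered 227 with DESeq2, 266 after the filter, 347 with library totals, 68 with TMM factors from TSS peaks, 179 with loess offsets and 373 with GC offsets, and 31 to 1019 without single libraries. Over all peaks the calls between the basal groups moved too, to 21927 higher and 2393 lower with TMM factors from TSS peaks. They were 9763 and 6821 after the filter and 9639 and 5889 with DESeq2. Sites higher in luminal TEB (11) numbered 28 of 1523 tested after the filter, 18 with library totals, 36 with TSS-peak TMM factors and 3 to 21 without single libraries; sites lower in luminal TEB were 0 to 0 without single libraries. Interaction sites (381) numbered 251 with RLE factors, 194 with TSS-peak TMM factors and 119 to 727 without single libraries. Nearest-gene promoters higher in basal duct (1442) numbered 948 with GC offsets and 2404 for all genes within 100 kb, and 1165 to 1486 without single libraries. Those lower in basal duct (182) numbered 578 with TMM factors from TSS peaks, 333 with loess offsets, 681 with GC offsets and 315 within 100 kb, and 66 to 199 without single libraries. Those higher in basal TEB (435) ran from 313 to 491 and those lower (368) from 168 to 486 without single libraries. None of the 11 sites named for their small p between TEB and duct changed direction; the other named sites were not rerun under the alternatives. DESeq2 gave no adjusted p for these sites between the luminal groups, so it has no value there.

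Same-numbered libraries deviated together by at most 0.093 (correlation of deviations from the group means), so the replicate numbers were not taken to pair the libraries, although each luminal TEB library correlated best with the luminal duct library of its number. With the replicate block, 102 sites were higher and 922 lower in basal TEB, 27 were higher and 1 lower in luminal TEB and 390 had an interaction; with the block and GC offsets, 327 sites were higher in basal TEB, 28 were higher in luminal TEB, and 870 promoters were higher and 605 lower in basal duct.

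Limits are the scaling, the 2 basal duct libraries, and the depth, with a median of 16 to 28 counts per site in basal TEB, 5 to 7 in luminal TEB and 6 or 7 in luminal duct libraries. Motif shares grew with the window, for TEAD to 49.6% in whole peaks and 20.8% in 200 bp, against 27.3% and 16.5% over all distal peaks. Basal-only peaks were wider (median 697 bp, against 322 bp), so whole-peak shares are not like for like. In whole peaks AP-1 (35.0%, against 32.8%), GRHL (5.09%, against 4.35%) and CTCF (11.6%, against 11.4%) were not scarcer than in all distal peaks. The E-box of SNAI and ZEB factors was in 41.0%, against 28.8%, while FOX stayed lower (6.58%, against 8.81%).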
